A study of Mus musculus with 2 samples.

Results

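Windows of 1 Mb that hold clusters of zinc finger genes were followed as partners of chromosome 1 in a Hi-C map of mouse embryonic stem (ES) cells. On a grid that starts at position 0, a window of chromosomes 2 to 19 was taken when 5 or more protein-coding genes with a symbol of Zfp plus digits started in it, by the GENCODE M21 annotation of GRCm38. Of 2277 windows, 18 met this rule, on 7 chromosomes, with 7 of them on chromosome 7, 4 on chromosome 17, 2 each on chromosomes 4 and 9, and 1 each on chromosomes 6, 8 and 13. They are called Zfp windows here. They held 492 protein-coding genes, of which 141, or 28.7%, were Zfp genes, out of 354 Zfp genes on chromosomes 2 to 19. The choice used gene symbols and positions and no contact.

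The study compared chromatin folding in wild-type ES cells and in Lin28a knockout ES cells, both grown on gelatin with mouse embryonic fibroblast feeders in LIF/2i medium for 2 days. Lin28a encodes an RNA-binding protein of pluripotent cells. Each group is given as 1 set of Hi-C pairs, in which each line is a ligated pair of DNA ends from cross-linked nuclei. The labels speak of a pair of replicates per group, but no replicate is marked in the lists. Each list holds pairs of 2 sequencing runs, and whether these are the replicates is not given in the sources used here, so no difference between the groups could be tested and every interval here covers counting error only, at 95%. The study describes Lin28a knockout ES clones made with CRISPR/Cas9 as well as ES lines from Lin28 knockout mice. Its methods name E14 as the ES line, with another ES line used where stated. Which of these gave the Hi-C libraries, and whether the knockout is 1 clone, is not given in the sources used here. Feeder cells in the cultures were not separated in the lists, and their part in any value was not tested.

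The pairs used had their first end on chromosome 1 between 3 and 90.75 Mb, the stretch that both lists hold, and their second end on chromosomes 2 to 19. There were 2235886 such pairs in wild-type and 1718683 in knockout cells. The Zfp windows took 22187 of the wild-type pairs (0.993%) and 18010 of the knockout pairs (1.05%). A Zfp window had a median of 1297.5 pairs in wild-type, from 388 to 1697, and of 1040 in knockout cells, from 199 to 1353. As a check of the labels, the Lin28a gene on chromosome 4 held 12 second ends in wild-type and 15 in knockout cells, so its sequence was present in both, and these lists do not show what was altered in it. Chromosomes 6 and 8 differed between the libraries in their share of partners, so contact levels were scaled within each chromosome.

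Zinc finger proteins of the C2H2 type bind DNA through tandem fingers, each of which holds a zinc ion between a pair of cysteines and a pair of histidines. Many of the clustered genes encode KRAB zinc finger proteins, which bind retroelements and recruit TRIM28 (KAP1) and the H3K9 methyltransferase SETDB1 to silence them in ES cells. The clusters grew by tandem duplication, and their genes are known to carry H3K9me3 over the exons of the fingers in many cell types.

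Sequence reading backed the symbols. Of the 141 Zfp genes, 130 encoded 5 or more C2H2 fingers, with a median of 11 and a range of 0 to 25. Among the other genes of these windows, 20 of 351 (5.70%) also did, against 0.704% of genes without such a symbol elsewhere on chromosomes 2 to 19. Finger units of 84 bases that open with the conserved linker numbered 743 in 128 of the genes. Of them, 46 (6.19%) occurred letter for letter in another gene, so a read that lies wholly within such a unit has more than 1 best place in the genome. The following units, 1 from each of 4 genes, show the repeated building block of the clusters, read 5′ to 3′ on the coding strand from GRCm38. The capitals mark the 15 bases that encode the linker between fingers. They lie at chr13:67343410-67343493 (minus strand, Zfp953), chr13:67786239-67786322 (plus strand, Zfp493), chr17:21880553-21880636 (minus strand, Zfp995) and chr7:24303377-24303460 (minus strand, Zfp94), all in coding exons.
Zfp953: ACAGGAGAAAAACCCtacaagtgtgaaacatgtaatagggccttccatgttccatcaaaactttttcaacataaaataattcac
Zfp493: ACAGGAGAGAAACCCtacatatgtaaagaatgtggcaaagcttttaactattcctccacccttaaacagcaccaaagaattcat
Zfp995: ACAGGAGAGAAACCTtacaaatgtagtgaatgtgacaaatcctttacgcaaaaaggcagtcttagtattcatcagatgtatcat
Zfp94: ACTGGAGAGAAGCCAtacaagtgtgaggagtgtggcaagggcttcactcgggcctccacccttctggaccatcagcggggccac
Between these units, 54.8% to 65.5% of the bases were identical at the same position, and Zfp493 and Zfp995, from different chromosomes, were the most alike pair of the 4.

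The windows were rich in genes and in repeats. Their median was 25 protein-coding genes, from 7 to 60, against 5 over all windows. Bases marked as repeats made up a median of 36.7%, from 30.1% to 48.9%, against 31.6% over all windows. Compared with windows of the same gene count and no Zfp gene, 12 of 18 had more repeat bases and 7 of 18 had a higher GC content than the mean of their matched windows. Among windows without Zfp genes, 44.7% and 45.8% did. The median GC content was 43.8% in the Zfp windows and 45.0% in those matched windows. Unknown bases made up 33.2% of the window of chromosome 4 at 146 to 147 Mb, 5.00% of that of chromosome 6 and under 1% of each of the others. Olfactory (Olfr) or vomeronasal (Vmn1r, Vmn2r) receptor genes, which form tandem clusters of their own, started in 7 of the 18 windows. In 3 of the 18 there were 5 or more Olfr or 5 or more Vmn genes. Among the 2112 windows without Zfp genes, 34 held 5 or more Olfr genes and 23 held 5 or more Vmn genes.

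The first question was whether Zfp windows met the gene-rich or the gene-free stretches of chromosome 1. The 351 bins of 250 kb on chromosome 1 included 155 with no gene start, 80 with 1 gene, 71 with 2 to 3 and 45 with 4 or more. For each window a trans score was computed as the log2 ratio of its pairs with bins of 4 or more genes over its pairs with bins of 0 genes, minus the same value summed over all windows of the library. A score above 0 thus means more contact with gene-rich bins than the average partner has. Summed over the 18 windows the score was 0.18 (0.12 to 0.23) in wild-type and 0.26 (0.20 to 0.32) in knockout cells. The median over the 18 windows was 0.17 and 0.29, and that over all 2204 windows with enough pairs was -0.14 and -0.17. Zfp windows thus lay on the gene-rich side of the typical window in both libraries. They also held more genes than it, with a median of 25 against 5.

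By gene class of the chromosome 1 bin, the share of Zfp window pairs over that of all windows was 0.957, 0.964, 1.04, 1.06 and 1.11 in wild-type cells, for bins of 0, 1, 2 to 3, 4 to 5 and 6 or more genes. It was 0.929, 0.964, 1.07, 1.15 and 1.05 in knockout cells. The ratio was lowest with gene-free bins in both libraries. In bins of 4 to 5 genes the matched windows stood at 1.13 in wild-type and 1.12 in knockout cells, above the Zfp windows in the former library and below them in the latter. In the class of 6 or more genes, the matched windows stood at 1.16 in wild-type and 1.23 in knockout cells. The interval of the Zfp windows was 1.06 to 1.16 in wild-type and 0.994 to 1.11 in knockout cells. Its upper end was thus level with the matched value in wild-type and below it in knockout cells.

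**Figure D1:**
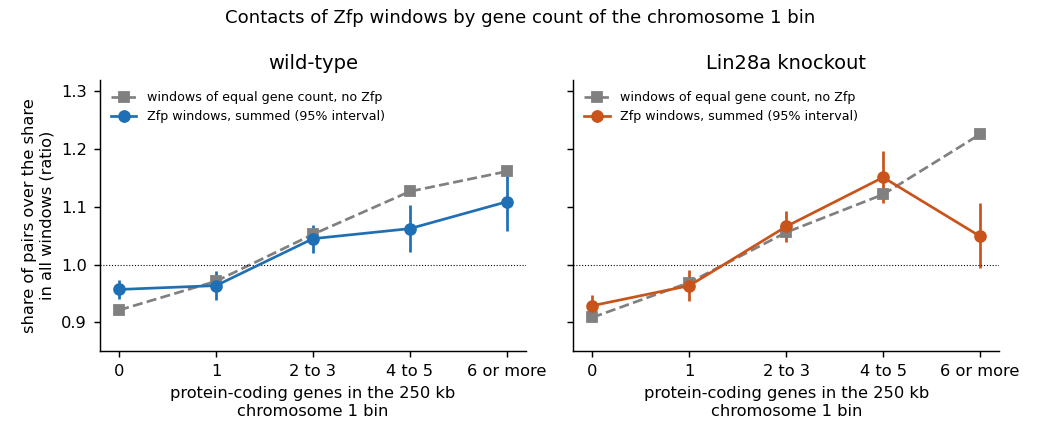
Ratio of the share of pairs held by each gene class of chromosome 1 bins to that share over all windows, for the 18 Zfp windows and their matched windows in both libraries, with 95% counting intervals on the Zfp windows. The Zfp windows are below 1 with bins of 0 genes (0.957 and 0.929) and above 1 with bins of 4 to 5 genes (1.06 and 1.15).

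Windows with as many genes but no Zfp gene had a higher score. Their mean was 0.31 in wild-type and 0.35 in knockout cells, and the Zfp windows were lower by a difference of -0.13 (-0.19 to -0.07) and -0.10 (-0.16 to -0.03). This difference sets a sum over Zfp windows, in which windows with more pairs weigh more, against an unweighted mean over their matched sets. The median of the gaps of single windows was -0.076 and -0.078. A Zfp window had a median of 10 matched windows, from 3 to 90, and Zfp windows of equal gene count shared theirs. A score below that of its matched windows was seen in 13 of 18 Zfp windows in wild-type cells, where 54.4% of windows without Zfp genes were below theirs. The count was 11 of 18 in knockout cells, against 53.1%. In 10 of 18 windows it was below in both libraries, against 43% of windows without Zfp genes. The counting interval lay wholly below the matched score in 6 windows in each library, against 18.9% and 21.2% of windows without Zfp genes, and wholly above it in 3 and 4 windows, against 17.2% and 19.4%. The gap was small and depended on the choice of windows. With matched windows that hold no receptor gene it was larger, at -0.26 (-0.32 to -0.20) and -0.24 (-0.31 to -0.18), with 14 of 18 windows below in each library, where 56.2% and 55.3% of windows without Zfp genes were below theirs. With matched windows of similar GC content it was 0.0065 (-0.05 to 0.07) in wild-type and 0.056 (-0.01 to 0.12) in knockout cells. With those of the same chromosome it was 0.044 (-0.03 to 0.11) and 0.048 (-0.03 to 0.13). With the expected shares taken within 10 Mb stretches of chromosome 1, a comparison chosen after seeing the data, it was -0.018 and 0.051. Without receptor genes in either the Zfp windows (11 remained) or the matched windows, also chosen after seeing the data, it was -0.046 (-0.12 to 0.03) and 0.026 (-0.06 to 0.11). The sign of the gap thus differed between these choices. The intervals for similar GC content, for the same chromosome and for receptor genes left out on both sides all include 0.

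**Figure D2:**
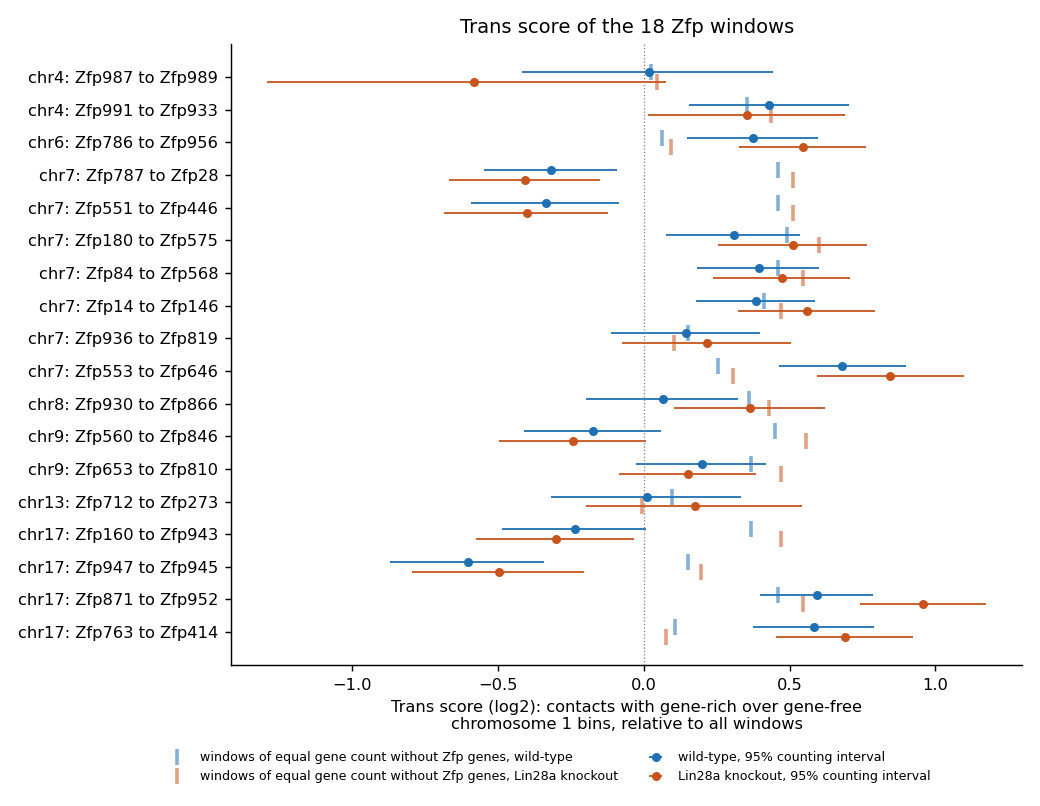
Trans score (log2) of each of the 18 Zfp windows, named by first and last Zfp gene, in wild-type and knockout cells with 95% counting intervals, and vertical ticks at the score of windows of equal gene count without Zfp genes. The window from Zfp553 to Zfp646 is the highest in wild-type cells (0.68) and that from Zfp947 to Zfp945 the lowest (-0.60).

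The Zfp windows differed widely among themselves. Their scores ran from -0.60 to 0.68 in wild-type and from -0.58 to 0.96 in knockout cells, and 5 and 6 of 18 were below 0, against 58.8% and 59.3% of all windows. The window with the most Zfp genes was chr13:67000001-68000000, with 19 of 32 genes, from Zfp712 to Zfp273. It includes Zfp708, Zfp455 and Zfp457. Of its 689 wild-type pairs, 115 were with gene-rich and 255 with gene-free bins, a score of 0.01 (-0.32 to 0.33), and of its 527 knockout pairs, 95 and 184, a score of 0.18 (-0.20 to 0.54). Both intervals include 0, so the largest cluster was not told apart from the average partner at this depth.

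The next largest cluster, chr17:21000001-22000000, held 14 Zfp genes among 19, from Zfp160 to Zfp943. It had 191 gene-rich and 503 gene-free contacts in wild-type and 157 and 423 in knockout cells, with scores of -0.24 (-0.48 to 0.0064) and -0.30 (-0.57 to -0.03). The adjoining window, chr17:22000001-23000000, with 6 Zfp genes among 10 from Zfp947 to Zfp945, had the lowest wild-type score. Its scores were -0.60 (-0.87 to -0.34) from 157 and 533 contacts in wild-type and -0.50 (-0.79 to -0.21) from 129 and 398 in knockout cells. The former was within counting error of 0 in wild-type cells. With the expected shares taken within 10 Mb stretches of chromosome 1, it scored -0.0059 and -0.023, and the adjoining window -0.37 and -0.25, in wild-type and knockout cells.

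The other 2 windows of chromosome 17 had scores above 0. The window at 32 to 33 Mb, from Zfp871 to Zfp952, scored 0.59 and 0.96, and the window at 33 to 34 Mb, which holds the histone chaperone gene Daxx, scored 0.58 and 0.69, in wild-type and knockout cells. With the expected shares taken within 10 Mb stretches of chromosome 1, the window at 32 Mb scored 0.41 and 0.72 and that at 33 Mb 0.45 and 0.48.

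Chromosome 7 showed the same spread. Its highest window, chr7:127000001-128000000, held 10 Zfp genes among 57, from Zfp553 to Zfp646, and scored 0.68 (0.46 to 0.90) in wild-type cells, from 302 gene-rich and 421 gene-free contacts. In knockout cells it scored 0.85 (0.59 to 1.10), from 239 and 291. This was above 97.0% of all windows in wild-type and 97.3% in knockout cells. The window chr7:24000001-25000000, with 12 Zfp genes from Zfp180 to Zfp575, scored 0.31 (0.08 to 0.54) and 0.51 (0.26 to 0.76). The window chr7:29000001-30000000, with 9 Zfp genes from Zfp84 to Zfp568, scored 0.39 (0.18 to 0.60) and 0.47 (0.24 to 0.71). Zfp568 is known as a repressor of a placental transcript of Igf2. All 3 windows had intervals above 0 in both libraries. With the expected shares taken within 10 Mb stretches of chromosome 1, the window at 127 Mb scored 0.43 and 0.56 in wild-type and knockout cells. The windows at 24 and 29 Mb then scored 0.34 and 0.30 in wild-type and 0.58 and 0.35 in knockout cells.

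The windows at 6 and at 12 Mb of chromosome 7, the former named after its values were seen, were lower, at -0.32 and -0.34 in wild-type and -0.41 and -0.40 in knockout cells. With the expected shares taken within 10 Mb stretches of chromosome 1, both scored -0.083 in wild-type cells, and they scored 0.0059 and -0.0046 in knockout cells. The latter holds Zfp110. Trim28, the corepressor gene of the KRAB family (chr7:12999114-13031035), starts at the end of the same window by its longest annotated form, while most of its body lies in the next window, which holds 0 Zfp genes and 5 Vmn genes and scored -0.50 (-0.78 to -0.23) in wild-type and -0.44 (-0.75 to -0.14) in knockout cells. On chromosome 9, the window with the DNA methyltransferase gene Dnmt1 scored -0.17 and -0.24, and the window with Zfp809, a known repressor of retroviral DNA in ES cells, scored 0.20 and 0.15. The intervals of both windows on chromosome 9 included 0 in both libraries.

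Receptor genes were present in most of the Zfp windows with low scores. All 5 Zfp windows below 0 in wild-type cells held some of them, at chromosome 7 at 6 Mb (8 Olfr genes and 1 Vmn gene), chromosome 7 at 12 Mb (12 Vmn), chromosome 9 at 20 Mb (10 Olfr) and chromosome 17 at 21 and 22 Mb (4 and 3 Vmn). In knockout cells the same 5 were below 0, together with the window of chromosome 4 at 146 to 147 Mb, which holds none and was the lowest. The other 2 windows with such genes, chromosome 7 at 24 Mb (1 Vmn) and chromosome 17 at 33 Mb (4 Olfr), were above 0. Summed over the 7 windows with a receptor gene, the score was -0.08 (-0.17 to 0.0074) in wild-type and -0.07 (-0.16 to 0.03) in knockout cells, and over the 11 without one it was 0.35 (0.28 to 0.42) and 0.48 (0.41 to 0.56). This split was made after the values were seen, and the part of the receptor genes in the scores was not tested. The share of all windows, or of all windows below 0, that hold any receptor gene was not counted.

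The windows of chromosome 4 held the clusters around Zfp987 to Zfp989 (146 to 147 Mb, 6 Zfp genes among 7) and Zfp991 to Zfp933 (147 to 148 Mb, 9 among 17). The second of these also holds Fv1, the retroviral restriction gene. It scored 0.43 (0.15 to 0.70) in wild-type and 0.35 (0.01 to 0.69) in knockout cells, from 179 and 297, and 118 and 202, contacts with gene-rich and gene-free bins. The first is described with the differences between libraries.

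Where a Zfp window lay on its chromosome moved with its score. Mouse chromosomes have their centromere near position 0, and chromosome 1 between 3 and 32.25 Mb is poor in genes, with 6 gene-rich bins and 68 gene-free ones among 117. In wild-type cells, pairs of all windows with that stretch had 7.01% of their first ends in gene-rich bins, against 21.3% for the rest of the region. The 7 Zfp windows within 25 Mb of the start of their chromosome (a limit set after seeing the scores) had a summed score of -0.15 (-0.24 to -0.06) in wild-type and -0.15 (-0.25 to -0.06) in knockout cells. The other 11 had 0.40 (0.33 to 0.47) and 0.55 (0.47 to 0.62). Of the 7 windows with receptor genes, all but that of chromosome 17 at 33 Mb lie within this limit, so among Zfp windows position and receptor genes can hardly be told apart. The same split over all windows gave -0.22 and 0.05 in wild-type and -0.31 and 0.08 in knockout cells, so this dependence was not particular to Zfp windows.

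The share of pairs that Zfp windows near the start had with the first stretch of chromosome 1, up to 32.25 Mb, was 37.7% (36.7% to 38.7%) in wild-type and 42.0% (40.9% to 43.1%) in knockout cells. For the other 11 it was 27.7% (26.9% to 28.5%) and 25.8% (24.9% to 26.6%). Over all windows it was 37.1% and 41.1% near the start and 28.8% and 27.8% beyond it. With the expected shares taken within 10 Mb stretches of chromosome 1, the median score of Zfp windows near the start was -0.0086 in wild-type and 0.0059 in knockout cells, and that of the others 0.30 and 0.35. The windows near the start still ranged from -0.37 to 0.34 in wild-type and from -0.25 to 0.58 in knockout cells.

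**Figure D3:**
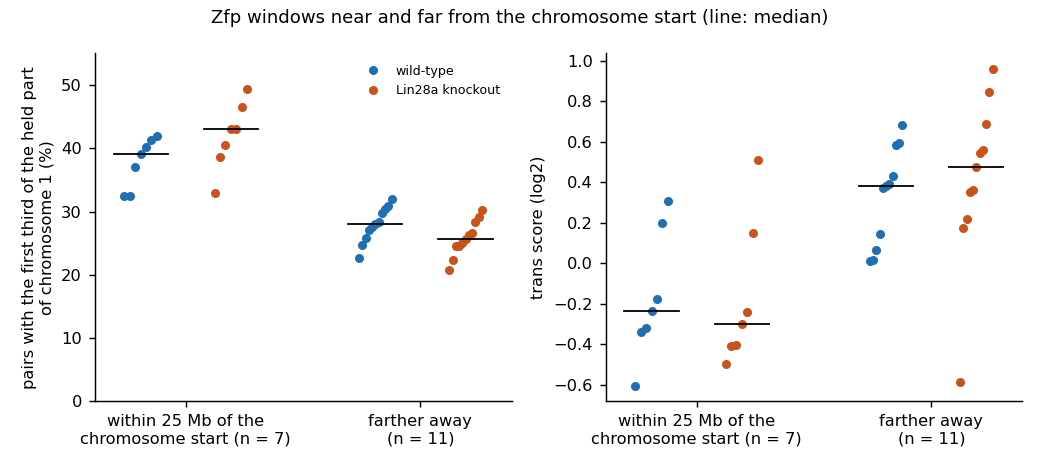
Share (%) of each Zfp window's pairs that lie with the stretch of chromosome 1 up to 32.25 Mb (left) and its trans score (log2, right), for the 7 windows within 25 Mb of the chromosome start and the 11 farther away, with 1 point per window and library and a line at the median. The median score is -0.24 and -0.30 near the start and 0.38 and 0.47 farther away, in wild-type and knockout cells, where the only window farther away below 0 is that of chromosome 4 at 146 to 147 Mb in knockout cells.

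The score was also followed by the number of Zfp genes in a window. Windows with 1 Zfp gene (107 windows) stood above their matched windows by 0.09 (0.07 to 0.11) in wild-type and 0.10 (0.07 to 0.13) in knockout cells. For the 21 with a pair of Zfp genes the difference was 0.05 (0.0012 to 0.11) and 0.03 (-0.03 to 0.09), and the knockout interval includes 0. Below their matched windows were 38 and 43 of the 107, and 7 and 11 of the 21. Among windows without Zfp genes, 54.4% and 53.1% were below theirs. The 17 windows with 3 or 4 Zfp genes were lower than their matched windows in sum, at -0.13 (-0.19 to -0.07) and -0.17 (-0.24 to -0.10). Of these, 11 and 10 were below theirs. For windows just outside and just inside the rule, the median score was -0.02 and -0.15 with 4 Zfp genes (7 windows) and 0.20 and 0.22 with 5 (5 windows), in wild-type and knockout cells. Their ranges overlapped, at -0.85 to 0.65 and -0.55 to 0.51 with 4 Zfp genes, and -0.17 to 0.58 and -0.24 to 0.69 with 5.

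**Figure D4:**
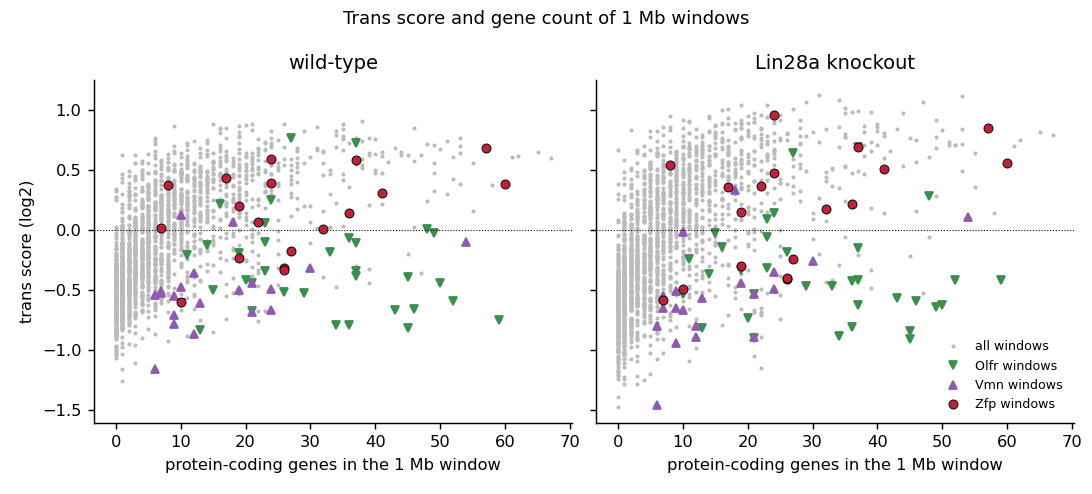
Trans score (log2) against the number of protein-coding genes of each 1 Mb window, in both libraries, with Zfp, Olfr and Vmn windows marked among all windows. The Zfp windows span 7 to 60 genes and scores from -0.60 to 0.68 in wild-type and -0.58 to 0.96 in knockout cells, and most Olfr and Vmn windows lie below 0.

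Over the first 3 Mb away from the windows the number of genes fell. The score fell too, though in wild-type cells not yet at 1 Mb. At 0, 1, 2 and 3 Mb from a Zfp window it was 0.18, 0.17, 0.13 and 0.06 in wild-type and 0.26, 0.16, 0.08 and -0.03 in knockout cells. The mean number of genes at these distances was 27.3, 22.7, 17.9 and 12.6. The counting intervals of the score at 0 and 1 Mb were 0.12 to 0.23 and 0.12 to 0.22 in wild-type cells. In knockout cells they were 0.20 to 0.32 and 0.11 to 0.22. From 4 to 10 Mb the score followed no single direction, between -0.08 and 0.08 in wild-type and between -0.09 and 0.13 in knockout cells.

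Within the windows, second ends were split by whether they fell in Zfp gene bodies, in other gene bodies or outside both. Zfp gene bodies held 3218 wild-type and 2577 knockout pairs and scored 0.06 (-0.09 to 0.21) and 0.13 (-0.03 to 0.29). Other gene bodies held 8691 and 7101 pairs and scored 0.27 (0.19 to 0.36) and 0.38 (0.28 to 0.47). The difference was -0.21 (-0.38 to -0.04) in wild-type and -0.25 (-0.43 to -0.06) in knockout cells. When the comparison was made inside each window and then combined, it was -0.15 (-0.34 to 0.05) and -0.01 (-0.22 to 0.19), with Zfp bodies lower in 11 and 8 of 18 windows. The pooled difference was thus smaller inside windows, and both combined intervals include 0. Outside both kinds of gene bodies there were 10278 and 8332 pairs, with scores of 0.13 (0.05 to 0.21) in wild-type and 0.20 (0.11 to 0.29) in knockout cells. Zfp gene bodies differed from this part by -0.065 (-0.23 to 0.10) and -0.067 (-0.25 to 0.12), and both of these intervals include 0.

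Zfp windows also differed from the receptor clusters, which are likewise built of tandem genes. The receptor windows compared here held no Zfp gene. The 34 windows with 5 or more Olfr genes, with a median of 31 genes, scored -0.24 (-0.29 to -0.20) in wild-type and -0.31 (-0.37 to -0.26) in knockout cells. The 20 tested windows with 5 or more Vmn genes, with a median of 12 genes, scored -0.45 (-0.52 to -0.38) and -0.44 (-0.51 to -0.36). The Zfp windows were higher than the Olfr windows by 0.42 (0.35 to 0.49) and 0.57 (0.49 to 0.65), and higher than the Vmn windows by 0.63 (0.54 to 0.71) and 0.69 (0.60 to 0.79). Of the receptor windows, 32 of 34 and 20 of 20 were below their own matched windows in each library, where 13 and 11 of the 18 Zfp windows were. The Zfp windows were the higher ones under each of the 16 alternatives run for these differences. The 3 Zfp windows that themselves hold 5 or more Olfr or Vmn genes scored between -0.34 and -0.17 in wild-type cells, and so lay nearer to the receptor windows.

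The amount of contact was read as the pairs of a window over the mean of the windows of its chromosome. Its median over Zfp windows was 1.22 in wild-type, from 0.417 to 1.67, and 1.36 in knockout cells, from 0.296 to 1.86. The matched windows had 1.14 and 1.13. A level below the matched mean was seen in 6 and 4 of 18 Zfp windows, against 52% and 54.8% of windows without Zfp genes. Zfp windows were thus not short of contacts with chromosome 1. The lowest level in both libraries belonged to the window at 146 to 147 Mb of chromosome 4, and the cluster on chromosome 13 had 0.677 and 0.690.

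Between the libraries, the summed score of Zfp windows was higher in knockout cells by 0.08 (0.0017 to 0.16), and that of the matched windows by 0.05 (0.01 to 0.08). The interval of the former included 0 under several alternatives, namely either sequencing run alone, without chromosomes 6 and 8, without chromosome 7, with 3 or more or 8 or more Zfp genes, and with the farther part of the region, and with gene-rich bins of 6 or more genes the difference was -0.037 (-0.15 to 0.08). The difference of these differences was 0.03 (-0.05 to 0.12), an interval that includes 0. It was higher in knockout cells in 11 of the 18 windows, against 49% of all windows. Score differences past 0.5 in either direction were seen in 4.17% of all windows and in 1 of 18 Zfp windows. None of the 18 was past 0.5 upward, against 0.907%, and 1 was past it downward, against 3.27%. The window at 146 to 147 Mb of chromosome 4 scored 0.02 (-0.42 to 0.44) in wild-type and -0.58 (-1.29 to 0.08) in knockout cells, with 68 and 150, and 25 and 82, contacts with gene-rich and gene-free bins. Its difference was -0.60 (-1.37 to 0.16), so over the whole region it is within counting error. With first ends in the part of the region nearer the start of chromosome 1 it was -0.21 (-1.58 to 1.15). In the farther part it was -1.04 (-2.00 to -0.09), an interval that leaves out 0, in a split chosen after seeing the data. Over the whole region, a counting interval of the difference that left out 0 was found in 1 Zfp window, against 7.8% of all windows. It lay above 0 in this window, against 3.58%, and below 0 in 0 of the 18, against 4.22%. This window, at 32 to 33 Mb of chromosome 17, was named after its values were seen, and scored 0.37 (0.08 to 0.65) higher in knockout cells. With first ends in the part of the region nearer the start of chromosome 1 the difference was 0.66 (0.21 to 1.12), and in the farther part it was 0.07 (-0.31 to 0.45), a split of this window chosen after seeing the data.

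The ratio of the contact level in knockout over wild-type cells had a median of 1.07 over Zfp windows, from 0.711 to 1.20, against 0.991 over all windows. Its counting interval left out 1 in 9 of 18 Zfp windows, against 35.2% of all windows. The 7 Zfp windows within 25 Mb of the chromosome start had ratios from 1.06 to 1.20, and the other 11 from 0.711 to 1.13. Over all windows near the start, the share of pairs with chromosome 1 up to 32.25 Mb was also higher in knockout cells (41.1% against 37.1%). The ratio was not compared with that of matched windows or of all windows near the start. It was thus not shown to be particular to Zfp windows. The ratio depended on the stretch of chromosome 1. With first ends in the part of the region nearer the start of chromosome 1, the interval left out 1 in 10 of 18 Zfp windows, against 41.6% of all windows. With first ends in the farther part it did so in 4, against 14.5%, so the count was lower over all windows too. The window of chromosome 7 at 12 Mb had a ratio of 1.37 (1.23 to 1.53) in the nearer and 0.965 (0.840 to 1.11) in the farther part. A level more than 25% higher in either library was seen in 2.36% of all windows and, among Zfp windows, again only in the window at 146 to 147 Mb of chromosome 4, with 388 pairs in wild-type and 199 in knockout cells, a ratio of 0.711 (0.599 to 0.843). In this window, 29% of its 10 kb steps held a pair and 64.7% of its wild-type pairs had a mapping quality score of 30 or more, against 86.0% over all pairs. Its pairs came from few stretches. The most, 119 in wild-type and 60 in knockout cells, lay in chr4:146400001-146500000, which holds Zfp992, and there were 0 in either library in chr4:146100001-146200000, which holds Zfp600 and most of Zfp987. The ratio was 0.760 at a mapping quality score of 30 or more, and 1.04 from the smaller sequencing run, which held 34 and 13 pairs. The part of unknown bases and repeats in this value was not tested.

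**Figure D5:**
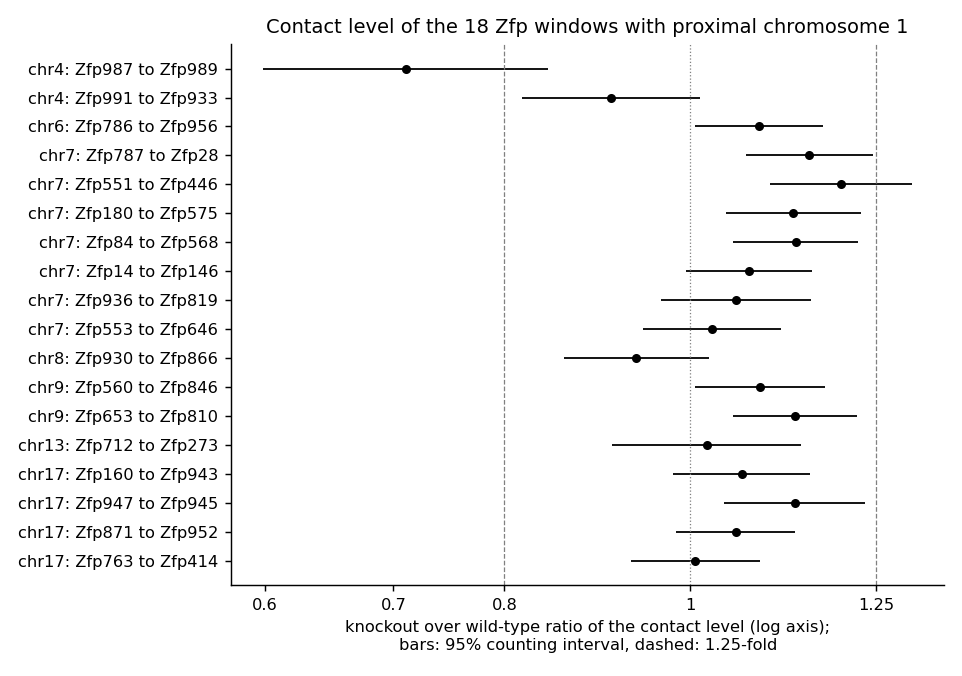
Knockout over wild-type ratio of the contact level (log axis) of each of the 18 Zfp windows, named by first and last Zfp gene, with 95% counting intervals and dashed lines at the 25% limit in either direction. The window from Zfp987 to Zfp989 on chromosome 4, at 0.711, is the only point past a line.

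Genes for the proteins that KRAB zinc finger proteins work with were read by the window in which each starts. Of 20 such genes, 3 started in a Zfp window (Trim28, Dnmt1 and Daxx), Trim28 only with the first part of its longest form. The median score over the 20 genes was 0.32 in wild-type and 0.46 in knockout cells, and 14 and 15 of them were above 0, against 41.2% and 40.7% of all windows. Their windows held a median of 19 genes, and windows of equal gene count without Zfp genes had a median score of 0.34 and 0.43, with 9 and 6 of the 20 below theirs. Setdb1, the H3K9 methyltransferase gene, had the highest in wild-type cells, at 0.64 (0.43 to 0.85), and 0.73 (0.49 to 0.97) in knockout cells. Suv39h2, another H3K9 methyltransferase gene, had the lowest, at -0.46 (-0.71 to -0.21) and -0.52 (-0.79 to -0.25). Uhrf1 and Chaf1a share a window and are not separate values. Both windows that Trim28 touches were below 0 and that of Setdb1 above it, in both libraries. Position was not taken into account here. Trim28, Dnmt1, Ehmt1 and Suv39h2, all below 0 in both libraries, start within 25 Mb of the chromosome start, where all windows scored -0.22 and -0.31. Dnmt3a also starts there and was above 0, while Smarcad1 lies farther away and was below 0. Within 10 Mb stretches, the window in which Trim28 starts scored -0.083 and -0.0046. The part of position was not tested.

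Zfp genes also occur on the chromosome 1 side. The bin at 33.75 to 34 Mb, which holds Zfp451, had 97 pairs with Zfp windows in wild-type cells, 1.13 times (0.914 to 1.37) the number set by the share of all windows, and 100 pairs in knockout cells, 1.34 times (1.09 to 1.63). The bin at 74.5 to 74.75 Mb, which holds Zfp142, had 116 and 82 pairs, 1.15 times (0.954 to 1.39) and 0.973 times (0.774 to 1.21). Both intervals of the Zfp142 bin, and the wild-type interval of the Zfp451 bin, include 1. Among all bins, chosen after seeing the values, the highest was that at 34 to 34.25 Mb in wild-type cells (1.48 times, 129 pairs), in which no coding gene starts, and that at 36 to 36.25 Mb in knockout cells (1.62 times, 142 pairs). The bin at 34 to 34.25 Mb adjoins that of Zfp451, and in knockout cells it stood at 1.48 times (1.22 to 1.78, 113 pairs). The share of all bins whose interval leaves out 1 was not counted. Across the 349 bins compared, the ratio in wild-type and in knockout cells had a Pearson correlation of 0.501, given as a description only. Its cause was not tested.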

How the data were processed

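The authors' Hi-C reads were base-called with CASAVA 1.8 and mapped and filtered with Bowtie2 and HiC-Pro on mm10 (GRCm38), per the submitters' processing notes. The study's methods do not describe this assay, and the filters used are not given in the sources used here. The deposited lists hold the position, strand and mapping quality score of both ends of each pair. They were given as part of each library: the wild-type list has 5793079 lines and ends on chromosome 1, and the knockout list has 11430967 and ends on chromosome 2. No pairs were removed as duplicates here, and both sequencing runs of a library were kept. Mapping of repeated ends by the authors could lower contact in repeated clusters, but this was not tested.

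Second ends were counted in 1 Mb windows and first ends in 250 kb bins, with a minimum of 100 pairs for a tested window (Python 3.11.15, numpy 2.4.6, pandas 2.3.3, SciPy 1.17.1). A gene belonged to the bin of its start. Matched windows had the same gene count and no Zfp gene; where fewer than 3 existed the count was widened, as for 2 of 18 windows. Sums took exact binomial intervals and differences log-normal ones, both at 95% and for counting error only. Scripts were tested on simulated data. Fingers were found as CxxC, 12 residues and HxxxH in translated GENCODE transcripts. Named were the 6 windows with the most Zfp genes, the highest and lowest wild-type scores and score differences past 0.5, with the first and last Zfp gene of each and Zfp genes from a list of known roles. Other windows are given by single values, and those named outside the rule (chromosome 7 at 6 Mb and chromosome 17 at 32 Mb among them) were chosen after their values were seen. The windows, lists and comparisons were chosen with earlier results of these data known. Finger units were printed from the genome because no protein table was used here.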

Additional observations from a re-analysis of the deposited data

Results flagged for a closer look

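The knockout list also holds pairs outside the region that both libraries share, and the Zfp windows were read there as well, with no wild-type value beside them. With first ends on the rest of chromosome 1, from 90.75 to 195.25 Mb, the 18 windows had 13036 pairs and a summed score of 0.31 (0.24 to 0.37), and differed from their matched windows by -0.084 (-0.15 to -0.01), with 12 of 18 below, against 56.8% of windows without Zfp genes. The same difference at first ends on chromosome 2, from 3 to 42 Mb, was -0.18 (-0.26 to -0.11), with 12684 pairs, a score of 0.38 and 9 of 18 windows below, against 54.1%. These were singled out because they are data the other comparisons did not use. The sign of both turned with the choice of matched windows, tried after the data were seen. With matched windows of similar GC content they were 0.036 (-0.04 to 0.11) and 0.026 (-0.05 to 0.10), with those of the same chromosome 0.12 (0.04 to 0.21) and 0.065 (-0.03 to 0.16), and with those without receptor genes -0.25 (-0.32 to -0.17) and -0.32 (-0.40 to -0.24). The scores of the 18 windows had a Pearson correlation with those of the main region of 0.806 and 0.862, given as a description, since all come from 1 library and share gene content and position.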

How the results depend on the processing

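No paired analysis was possible because each group has 1 library and no replicate number. Values are given for wild-type and then knockout cells. The summed score of Zfp windows stayed above 0 in both libraries under all 16 alternatives run for it. Their median knockout over wild-type contact level lay between 1.03 and 1.09 over the 13 alternatives that bear on it. The gap to matched windows was not stable, ranging from -0.26 to 0.079 in wild-type and from -0.25 to 0.17 in knockout cells over 22 alternatives.

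With 8 or more Zfp genes (6 windows) the score was 0.29 and 0.37, the gap -0.044 and -0.027, and 4 and 4 windows were below, and the excess over Olfr windows was 0.54 and 0.68 and over Vmn windows 0.75 and 0.80. With 3 or more (35 windows), 24 and 21 were below. With gene-rich bins of 6 or more genes the knockout score was 0.18, the knockout gap -0.25 and the difference between libraries -0.037. With 2 or more genes the excess over Olfr windows was 0.34 and 0.47 and over Vmn windows 0.47 and 0.58. Without Olfr and Vmn genes in the matched windows the gap was -0.26 and -0.24. With matched windows within 2 points of GC it was 0.0065 and 0.056, that of chromosome 7 at 12 Mb 0.11 and 0.015, and that of chromosome 17 at 21 Mb 0.19 and 0.21. On the same chromosome it was 0.044 and 0.048. Without chromosome 7, 7 of 11 windows were below in each library.

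From the part of the chromosome 1 region nearer its start, the score was 0.23 and 0.40, the gap -0.035 and 0.10, the difference between libraries 0.17, the knockout excess over Olfr windows 0.76, the knockout gap of the Zfp809 window 0.12, and 7 knockout windows were below. From the farther part the wild-type gap was -0.065. From the smaller sequencing run, with 195918 and 73404 pairs, the score was 0.26 and 0.43, the gap -0.038 and 0.085, the difference between libraries 0.17, the wild-type excess over Olfr windows 0.59, the excess over Vmn windows 0.50 and 1.11, and Zfp minus other gene bodies -0.47 and 0.42. The gaps there were -0.27 for chromosome 6 at 47 Mb in wild-type, and 0.21 and -0.015 for chromosome 17 at 21 and 33 Mb in knockout cells. Depth limits these last values. Within 10 Mb stretches of chromosome 1 the gap was -0.018 and 0.051 and the excess over Vmn windows 0.51 and 0.58. Without the Zfp windows that hold receptor genes the score was 0.35 and 0.48, the gap 0.079 and 0.17, 7 and 5 of 11 windows were below, and the excess over Olfr windows was 0.60 and 0.80 and over Vmn windows 0.80 and 0.92. With receptor genes left out of the matched windows too, the gap was -0.046 and 0.026, and 8 and 8 of 11 were below. With matched windows at a similar distance from the chromosome start the knockout gap was -0.18. These last alternatives, and leaving out chromosome 4, were chosen after seeing the data. Except where the setting itself removes windows or pairs, the cause of these changes was not tested.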
